A study of Mus musculus with 12 samples.

Results

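The interferon-stimulated genes described here are 44 named genes of mouse liver, found by symbol among the 55401 genes of 1 count table. They were divided by role into 4 signalling factors (Irf1, Irf7, Irf9 and Stat2), 4 sensors of viral RNA and DNA (Ifih1, Ddx58, Dhx58 and Zbp1), 22 antiviral effectors, 11 interferon-inducible GTPases and 3 antigen-processing genes (Psmb8, Psmb9 and Tap1). The factors, sensors and effectors make up the antiviral set of 30 genes, and the GTPases and antigen-processing genes the other set of 14. The study asked how iron overload of dendritic cells affects liver injury by acetaminophen, a pain reliever that is toxic to hepatocytes in overdose. Whole livers of male mice of 7 to 10 weeks were sequenced in 4 groups of 3 libraries. Control mice were FBXL5F/F, with loxP-flanked Fbxl5 alleles, and FBXL5ΔDC mice were Cd11c-Cre/Fbxl5F/F, so that all mice had the floxed alleles and only the FBXL5ΔDC mice had Cre. Fbxl5 encodes the subunit of a ubiquitin ligase that senses iron. The Cd11c promoter drives Cre in dendritic cells and is also active in some macrophages. Each genotype was taken untreated (0 h) and 6 h after 1 intraperitoneal injection of acetaminophen. The protocol names 300 and 500 mg/kg without tying a dose to these livers, and it starves mice for 16 h before the injection. Whether the 0 h mice were starved was not stated, so fasting and the drug cannot be told apart in the comparisons over time. The labels number the replicates and do not say whether they share a litter or cage, so p-values measure only the spread between these samples.

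Interferons are secreted proteins that put cells on guard against viruses and other microbes. Type I interferons bind the receptor of Ifnar1 and Ifnar2 and act through a complex that includes STAT2 and IRF9 and binds a DNA element called ISRE. Interferon gamma binds the receptor of Ifngr1 and Ifngr2 and acts on genes that have an element called GAS. The genes switched on this way include the IFIT proteins, which bind foreign RNA, and the OAS enzymes, which sense double-stranded RNA. Others are viperin (Rsad2), the ubiquitin-like protein ISG15 and the immunoproteasome with the peptide transporter TAP. Also among them are the guanylate-binding proteins (Gbp genes) and the immunity-related GTPases (Irgm1, Igtp, Iigp1, Tgtp1), which take part in defence against intracellular microbes.

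Promoter sequences of these genes, from 250 bases before to 50 bases after each annotated gene start, were available for 33 of the 44 in the RefSeq table of build GRCm38.p6. They were searched on both strands for the ISRE core, which is GAAA, any 2 bases and GAAA again, and for the GAS letters TTCNNNGAA. The ISRE letters stood in the promoter of 19 of 33 members (57.6%), against 3.99% of the 27025 genes with a promoter in the table. The GAS letters stood in 10 of 33 (30.3%), against 9.55% of those genes. By role, the ISRE letters were found for 7 of 8 GTPases, 9 of 16 effectors, 2 of 2 sensors, 1 of 4 signalling factors and 0 of 3 antigen-processing genes. Genes without an entry were Dhx58, Zbp1, Oas2, Usp18, Mx1, Mx2, Rtp4, Parp14, Gbp4, Gbp6 and Iigp1. A match describes the letters only, and no match says only that these letters are not in this window.

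The 250 bases before the start are shown first for 4 members that were higher in FBXL5ΔDC than in control livers after acetaminophen, with the ISRE letters in capitals and each promoter read 5′ to 3′ on its gene's strand. They lie at chr19:34583279-34583528 on the plus strand (Ifit3), chr19:34607707-34607956 on the plus strand (Ifit3b), chr12:26456453-26456702 on the minus strand (Rsad2) and chr3:142559794-142560043 on the plus strand (Gbp3).
Ifit3: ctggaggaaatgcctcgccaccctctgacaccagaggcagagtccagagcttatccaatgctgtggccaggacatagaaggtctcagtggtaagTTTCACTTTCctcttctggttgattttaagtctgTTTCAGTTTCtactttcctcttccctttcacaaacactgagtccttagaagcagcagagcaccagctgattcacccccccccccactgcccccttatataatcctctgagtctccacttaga
Ifit3b: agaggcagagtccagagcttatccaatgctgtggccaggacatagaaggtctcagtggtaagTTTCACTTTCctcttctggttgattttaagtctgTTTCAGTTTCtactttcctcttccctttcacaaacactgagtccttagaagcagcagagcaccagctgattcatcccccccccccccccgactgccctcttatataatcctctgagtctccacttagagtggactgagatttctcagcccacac
Rsad2: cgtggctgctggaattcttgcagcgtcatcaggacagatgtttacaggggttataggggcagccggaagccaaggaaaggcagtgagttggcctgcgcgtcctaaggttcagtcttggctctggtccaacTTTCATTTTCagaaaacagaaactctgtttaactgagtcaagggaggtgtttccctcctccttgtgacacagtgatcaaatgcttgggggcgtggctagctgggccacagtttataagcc
Gbp3: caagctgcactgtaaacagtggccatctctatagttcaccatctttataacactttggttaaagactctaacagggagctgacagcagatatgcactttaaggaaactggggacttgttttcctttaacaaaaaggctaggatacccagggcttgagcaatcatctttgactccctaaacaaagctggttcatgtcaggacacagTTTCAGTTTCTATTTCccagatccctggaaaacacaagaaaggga
Ifit3 and Ifit3b are neighbouring copies, and their promoters hold the same pair of 10-letter matches, TTTCACTTTC and TTTCAGTTTC, beginning 156 and 122 bases before the start of Ifit3 and 188 and 154 bases before that of Ifit3b. Rsad2 has 1 match, 120 bases before its start. In Gbp3 a pair of matches overlap at 45 and 39 bases before the start.

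Irf1 has no ISRE letters in its windows, and its promoter (chr11:53769764-53770013, plus strand) is shown because it holds the GAS letters, in capitals, 90 bases before the start.
Irf1: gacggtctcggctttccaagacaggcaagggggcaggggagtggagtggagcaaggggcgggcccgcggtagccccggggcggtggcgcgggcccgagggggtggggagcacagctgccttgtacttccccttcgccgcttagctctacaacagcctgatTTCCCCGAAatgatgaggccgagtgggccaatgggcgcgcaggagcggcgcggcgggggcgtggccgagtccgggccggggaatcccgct
Igtp (chr11:58199306-58199555, plus strand) and Bst2 (chr8:71537473-71537722, minus strand) are shown because they hold both sets of letters, in capitals, and did not pass the test in any of the 5 comparisons.
Igtp: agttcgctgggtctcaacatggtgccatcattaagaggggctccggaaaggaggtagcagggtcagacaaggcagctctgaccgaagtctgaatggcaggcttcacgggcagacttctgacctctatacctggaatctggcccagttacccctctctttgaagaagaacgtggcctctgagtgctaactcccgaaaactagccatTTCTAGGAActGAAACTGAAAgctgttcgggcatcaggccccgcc
Bst2: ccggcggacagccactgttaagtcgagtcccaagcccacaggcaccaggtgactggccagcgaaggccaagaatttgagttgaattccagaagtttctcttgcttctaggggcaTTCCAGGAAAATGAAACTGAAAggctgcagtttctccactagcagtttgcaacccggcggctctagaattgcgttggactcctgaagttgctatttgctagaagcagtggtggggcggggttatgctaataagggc
In Bst2 the GAS letters overlap the first of a pair of overlapping ISRE matches. Letters and calls were set side by side for the acetaminophen response of FBXL5ΔDC livers. The ISRE letters were present in 13 of the 21 promoters of members that rose there and in 6 of the 12 promoters of members that were not called. For the GAS letters the counts were 6 of 21 and 4 of 12.

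Each library held 67173096 to 72512319 counts over 19203 to 21405 detected genes. All 44 members passed the filter on low counts and were among the 17585 genes tested. Levels are CPM (counts of a gene for each 1000000 counts of the library) with library sizes scaled by edgeR's TMM factors, and group values are mean ± SD with n = 3. A gene was called, and is written to have risen or fallen, at an adjusted p below 0.05 in edgeR's quasi-likelihood test with Benjamini-Hochberg adjustment over all tested genes. One library stood apart. On the first principal component over all genes (39.8% of the variance) replicate 3 of the treated controls had a score of 86.8, next to the treated FBXL5ΔDC libraries with 97.7 to 107.4, whereas its fellow replicates had -9.46 and -8.18. The counts of called members that touch the treated control livers are therefore given with and without replicate 3, as are values of some single genes. Members whose call at 6 h changed without it are named with those counts. Genes shown without a second value may also have moved. Fbxl5 lay between 10.3 and 22.0 CPM over all libraries with no genotype call at either time, and Itgax, which encodes CD11c, lay between 0 and 0.583 CPM. Whole liver thus gives no check of the deletion, and fewer cells of a type and less RNA per cell cannot be told apart.

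**Figure D1:**
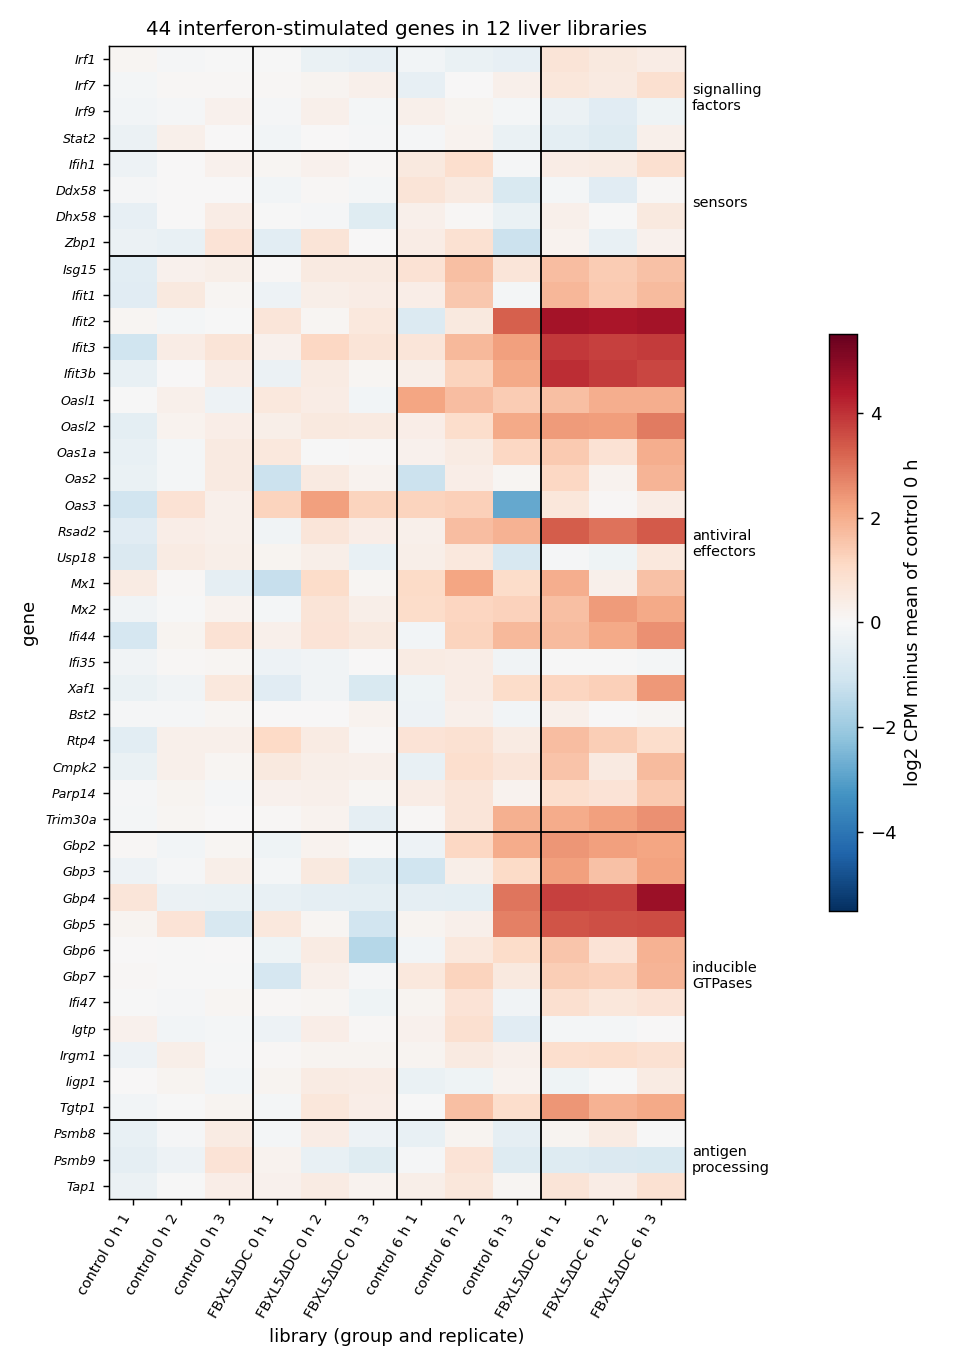
Log2 CPM of each of the 44 genes in each of the 12 libraries, minus that gene's mean over the 3 untreated control libraries, with rows grouped by role and columns by group. The most raised column is a treated FBXL5ΔDC library for each effector and GTPase other than Oasl1, Mx1, Ifi35, Igtp and Oas3, and treated control replicate 3 is raised for part of them and lowered for the sensors.

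Levels per transcript length set Bst2 and Iigp1 apart from the rest in every group. Bst2, which encodes tetherin, a membrane protein that holds budding virus particles on the cell, had 88.0, 92.0, 85.5 and 96.0 CPM per kilobase of exon in untreated control, untreated FBXL5ΔDC, treated control and treated FBXL5ΔDC livers. Iigp1, a GTPase that attacks the vacuoles of parasites, had 38.9, 49.0, 36.1 and 41.3 CPM per kilobase in the same order. The next level in untreated control livers was Igtp, another immunity-related GTPase, at 9.98 CPM per kilobase. In treated FBXL5ΔDC livers Ifit3 followed this pair with 27.3 CPM per kilobase, and Rsad2 came after it with 14.3 CPM per kilobase. Oas3 was lowest over all libraries, at 0.103 CPM per kilobase.

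Untreated livers of the genotypes could not be told apart in these genes. Of 44 members 0 were called in edgeR, 0 had an unadjusted p below 0.05 and 0 were called in DESeq2. Over all genes tested edgeR called 0%, DESeq2 called 0.0456% higher and 0.0342% lower, and 2.64% had an unadjusted p below 0.05. The median log2 difference of members, FBXL5ΔDC minus control, was 0.08, beside -0.00 over all genes. All 3 FBXL5ΔDC libraries lay above all 3 controls for Oas3, Cmpk2 and Iigp1 (3 of 44, with 5.94% of all genes doing so) and below them for Gbp4 (1 of 44, with 5.80% of all genes).

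In control livers 5 of the 44 members rose after acetaminophen, where 6.36% of all genes rose, and 0 fell, where 4.20% of all genes fell. The members that rose were Oasl1, Rsad2, Ifit3b, Mx2 and Isg15, all antiviral effectors. The median log2 change of members was 0.49, beside 0.03 over all genes. For the antiviral set it was 0.54 with 5 of 30 called, and for the GTPase and antigen-processing set it was 0.33 with 0 of 14 called. By unadjusted p, 15 members lay below 0.05, 3 of them in the GTPase and antigen-processing set, and 24.7% of all genes did so. DESeq2 called 10 members higher, where it called 10.2% of all genes higher, and edgeR fitted to the 2 control groups alone called 1 member and 1.45% of all genes higher. The count in edgeR rested on single libraries. It was 1 without untreated control replicate 1 or 2 (3.05% and 2.43% of all genes higher), 2 without untreated control replicate 3 (2.65% of all genes), treated control replicate 2 (7.41% of all genes) or any 1 FBXL5ΔDC library (4.59% to 5.32% of all genes), 4 without treated control replicate 3 (Ifih1, Isg15, Mx2 and Oasl1, with 5.23% of all genes higher, and 0 members lower, with 3.86% of all genes lower), and 11 without treated control replicate 1 (6.16% of all genes). Only Oasl1 was called in all 12 fits that left out 1 library.

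In FBXL5ΔDC livers 25 of the 44 members rose with acetaminophen, where 15.0% of all genes rose, and 0 fell, where 15.1% of all genes fell. The median log2 change of members was 1.10, beside 0.02 over all genes. Members that rose were 2 of 4 signalling factors, 0 of 4 sensors, 14 of 22 effectors, 9 of 11 GTPases and 0 of 3 antigen-processing genes. The median log2 change was 1.40 for effectors, 1.71 for GTPases, 0.17 for sensors and 0.18 for antigen-processing genes. The 3 treated libraries lay above the 3 untreated ones for 26 members (24.2% of all genes did so) and below them for 3, Irf9, Oas3 and Psmb9 (24.5% of all genes). Leaving out 1 library gave 21 to 27 members higher and 0 or 1 lower, beside 9.98% to 16.9% of all genes higher, and 18 of the 25 were called in every such fit. The 1 lower call was Irf9, without treated control replicate 3, in a fit that called 17.3% of all genes lower, and 16.9% higher with 27 members among them.

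**Figure D2:**
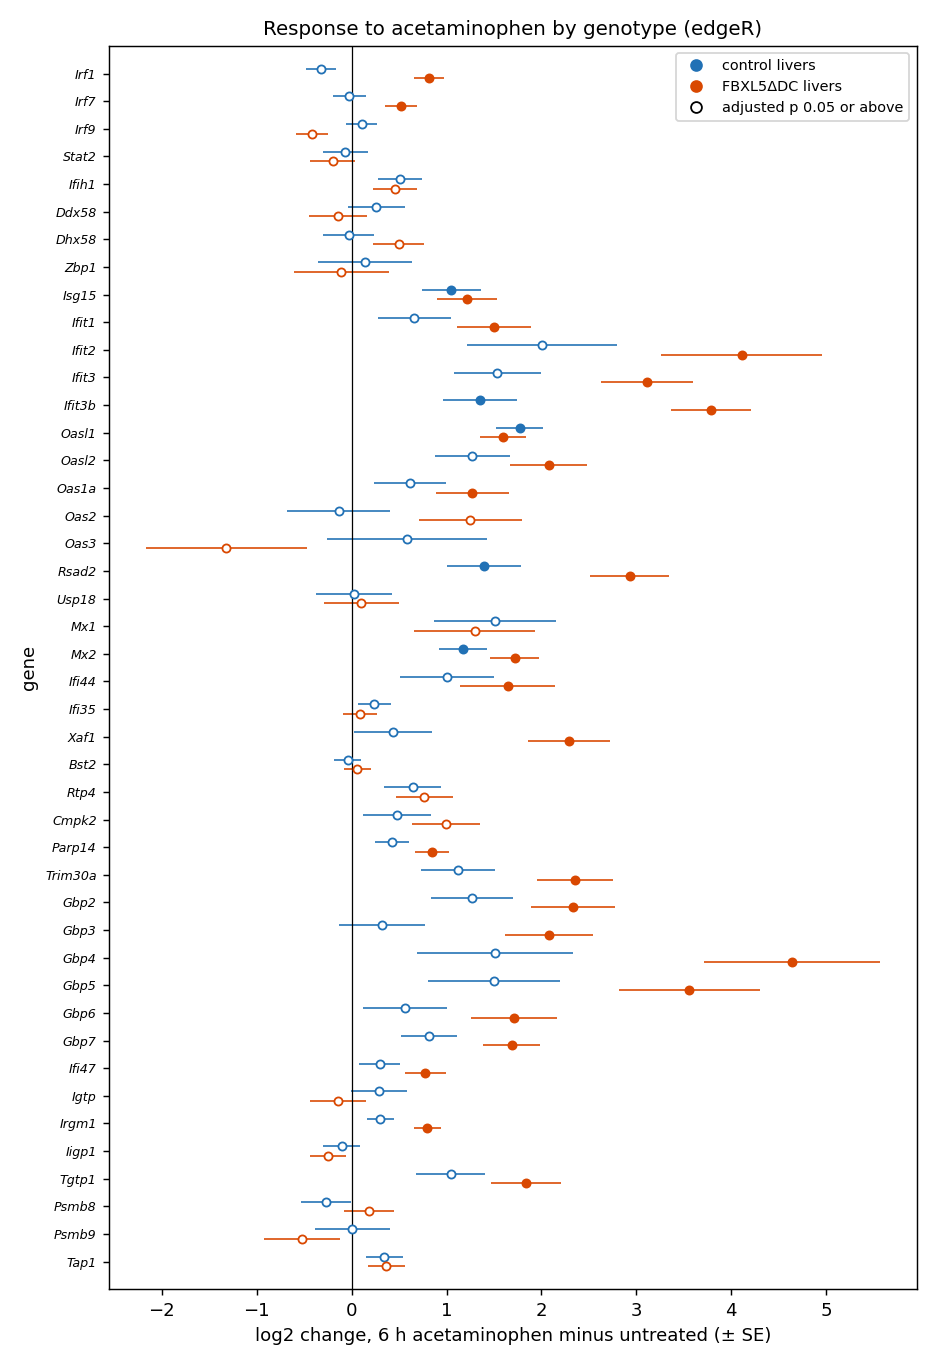
Log2 change from 0 h to 6 h after acetaminophen for each member in control and in FBXL5ΔDC livers (points, with bars of 1 standard error of the edgeR fit), ordered by role. In FBXL5ΔDC livers the changes run from -1.32 (Oas3) to 4.64 (Gbp4), and in control livers from -0.33 (Irf1) to 2.004 (Ifit2). The change of Ifit2 in control livers was not called, and it was 0.04 without treated control replicate 3.

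At 6 h 7 members were higher in FBXL5ΔDC than in control livers, where 1.35% of all genes were higher, and 0 were lower, where 4.51% of all genes were lower. They were the signalling factors Irf1 and Irf7, the effectors Ifit3, Ifit3b and Rsad2, and the GTPases Gbp3 and Irgm1. The median log2 difference of members was 0.69, beside -0.01 over all genes, with 0.69 in the antiviral set and 0.65 in the other set. By unadjusted p, 26 members lay below 0.05, as did 22.7% of all genes. DESeq2 called 14 members higher, where it called 4.16% of all genes higher, and edgeR fitted to the 2 treated groups alone called 0 members and 0% of all genes higher. All FBXL5ΔDC libraries lay above all control libraries for 19 members (9.74% of all genes did so) and below them for Irf9 and Psmb9 (11.2% of all genes). Without any 1 treated FBXL5ΔDC library 2 members were called, Irf1 and Ifit3b, beside 0.293% to 0.678% of all genes higher. Both were called in all 12 fits that left out 1 library. Without treated control replicate 1 the count was 3 (Ifit3b, Irf1 and Rsad2, with 0.190% of all genes higher), and without replicate 2 it was 4 (Ifit1, Ifit3b, Irf1 and Tgtp1, with 0.267% of all genes higher). Without an untreated library it was 4 to 6, with 4 (Ifit3, Ifit3b, Irf1 and Rsad2) for each FBXL5ΔDC library, beside 0.724% to 0.982% of all genes higher.

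Without treated control replicate 3 the same comparison at 6 h called 15 members higher, where 10.1% of all genes were higher, and 5 lower, where 12.9% of all genes were lower. To the 7 were added Gbp2, Gbp4, Gbp5, Ifit2, Mx2, Oasl2, Trim30a and Xaf1. The members then lower in FBXL5ΔDC livers were the sensor Ddx58, the signalling factor Irf9, Ifi35, Igtp and the immunoproteasome subunit Psmb9. The median log2 difference of members was 0.58 in that fit. The 2 remaining treated control livers are then assumed to vary like the other groups. Replicate 3 lay above both other treated controls for 17 members and below both for 22, beside 38.8% and 40.4% of all genes. It lay below both for all 4 sensors and all 3 antigen-processing genes. Of 11 GTPases it lay above both for 6 and below both for 3. Of 22 effectors it lay above both for 10 and below both for 9.

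**Figure D3:**
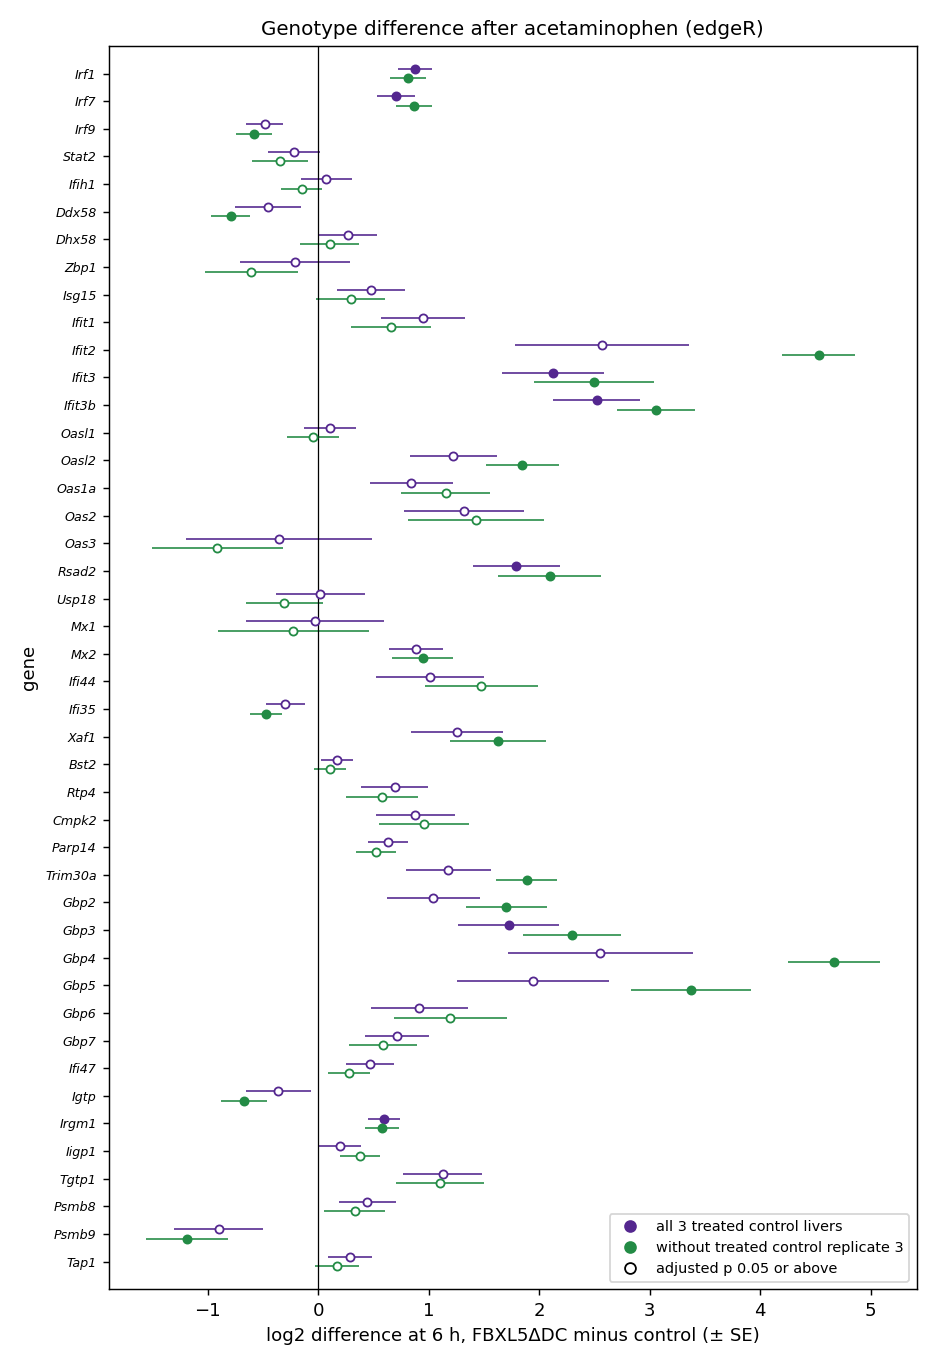
Log2 difference between treated FBXL5ΔDC and treated control livers for each member (points, with bars of 1 standard error of the edgeR fit), with all libraries and without treated control replicate 3. For Gbp4 the difference was 2.55 with all libraries and 4.67 without the replicate, and for Irf1 it was 0.88 and 0.81.

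Whether the response to acetaminophen differed between the genotypes was tested by the interaction term, the FBXL5ΔDC response minus the control response. It called 0 of 44 members, where it called 0.0341% of all genes higher and 0.256% lower. By unadjusted p 11 members lay below 0.05, as did 14.5% of all genes, and the median over members was 0.52, beside -0.02 over all genes. The lowest adjusted p-values of edgeR were 0.06 for Irf1 (log2 1.14, SE 0.22) and 0.0844 for Ifit3b (log2 2.44, SE 0.55). DESeq2 called both of them higher, the 2 members it called, where it called 1.24% of all genes higher. Without treated control replicate 3 the interaction called 11 members higher, where 5.97% of all genes were called higher, and 0 lower, where 7.74% were called lower. These were Gbp2, Gbp3, Gbp4, Gbp5, Ifit2, Ifit3b, Irf1, Irf7, Oasl2, Trim30a and Xaf1. With the other 11 libraries left out 1 at a time, 0 members were called.

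Among the signalling factors, Irf1 and Irf7 differed from Irf9 and Stat2. Irf1 (chromosome 11, 53770014 to 53778374) encodes a transcription factor induced by interferon gamma. Its levels were 16.5, 14.3 and 14.8 CPM in untreated control, 15.1, 11.8 and 11.01 CPM in untreated FBXL5ΔDC, 13.5, 11.8 and 11.1 CPM in treated control, and 24.7, 21.8 and 20.3 CPM in treated FBXL5ΔDC livers. The treated FBXL5ΔDC libraries lay above all 9 others, and the treated control libraries all lay below the untreated control ones. Irf1 rose 1.76-fold in FBXL5ΔDC livers (log2 0.82, SE 0.16, edgeR adjusted p = 0.00229), and the treated livers differed by 1.84-fold between genotypes, FBXL5ΔDC higher (log2 0.88, SE 0.16, edgeR adjusted p = 0.0108). In control livers its log2 change was -0.33 (SE 0.16, edgeR adjusted p = 0.222). Its exons overlap those of Gm17334 on the other strand, and the strand setting of the counting is not given in the sources used here.

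Irf7, the factor that amplifies type I interferon production, was at 21.1, 24.1 and 23.6 CPM in untreated control, 23.9, 25.5 and 27.4 CPM in untreated FBXL5ΔDC, 16.9, 23.3 and 27.5 CPM in treated control, and 35.1, 32.3 and 42.6 CPM in treated FBXL5ΔDC livers. The treated FBXL5ΔDC libraries were again above all others. The rise in FBXL5ΔDC livers was 1.43-fold (edgeR adjusted p = 0.0368), and the difference at 6 h was 1.62-fold (log2 0.70, SE 0.17, edgeR adjusted p = 0.0344). Of the 12 fits without 1 library, 5 called the rise and 2 the difference. Irf9 and Stat2, the DNA-binding and the signal-carrying partner in the type I complex, did not pass the test in any comparison with all libraries. Irf9 lay at 32.1, 29.9 and 24.9 CPM in treated control and 21.7, 17.5 and 22.8 CPM in treated FBXL5ΔDC livers, beside 23.8 to 31.2 and 24.8 to 32.6 CPM in the untreated groups. Its treated FBXL5ΔDC libraries were the lowest of all (log2 difference at 6 h -0.49, SE 0.17, edgeR adjusted p = 0.103, and 0.0186 without treated control replicate 3). Stat2 was at 35.4, 42.3 and 28.9 CPM in treated control and 24.9, 22.5 and 44.03 CPM in treated FBXL5ΔDC livers, and at 29.6, 44.7, 37.5, 32.7, 36.7 and 35.5 CPM in the untreated livers, control first. Its groups overlapped throughout.

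The 4 sensors were not called in any comparison with all libraries. Ifih1 encodes MDA5 and Ddx58 encodes RIG-I, which detect viral RNA in the cytosol, and Dhx58 encodes LGP2, which regulates both. Ifih1 was at 13.3, 16.3 and 19.2 CPM in untreated control, 17.3, 19.0 and 16.9 CPM in untreated FBXL5ΔDC, 23.6, 30.4 and 15.3 CPM in treated control, and 21.6, 21.7 and 29.7 CPM in treated FBXL5ΔDC livers. Each treated library other than control replicate 3 lay above all untreated ones. Its log2 change was 0.51 (SE 0.23, edgeR adjusted p = 0.187) in control and 0.46 (SE 0.23, edgeR adjusted p = 0.155) in FBXL5ΔDC livers, and without that replicate both responses were called. Ddx58 was at 15.7, 17.01 and 17.1 CPM in untreated control, 15.1, 17.4 and 15.5 CPM in untreated FBXL5ΔDC, 26.8, 23.4 and 9.36 CPM in treated control, and 15.5, 10.6 and 17.3 CPM in treated FBXL5ΔDC livers. The first pair of treated controls were the highest and the third was the lowest of all 12. Dhx58 ran from 4.42 to 9.23 CPM in untreated livers, and was at 8.37, 7.32 and 5.31 CPM in treated control and 8.35, 6.89 and 10.03 CPM in treated FBXL5ΔDC livers, with overlap. Zbp1, a sensor of Z-form nucleic acid, ran from 1.32 to 5.38 CPM over all libraries.

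The IFIT genes, on chromosome 19 between 34550694 (the start of Ifit2) and 34650009 (the end of Ifit1), included the largest changes of the effectors. Ifit2 was at 1.79, 1.56 and 1.67 CPM in untreated control, 2.64, 1.78 and 2.47 CPM in untreated FBXL5ΔDC, 0.993, 2.44 and 16.8 CPM in treated control, and 40.1, 38.4 and 40.7 CPM in treated FBXL5ΔDC livers. The treated FBXL5ΔDC livers were high alike, and among treated controls only replicate 3 was above the untreated range. Ifit2 rose 17.3-fold in FBXL5ΔDC livers (log2 4.11, SE 0.85, edgeR adjusted p = 0.00509). Its level at 6 h was 5.92-fold that of treated controls, which did not pass the test (log2 2.57, SE 0.79, edgeR adjusted p = 0.0856), and without treated control replicate 3 the log2 difference was 4.53 (edgeR adjusted p = 1e-06).

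Ifit3 was at 1.51, 4.40 and 5.41 CPM in untreated control, 3.89, 7.26 and 5.36 CPM in untreated FBXL5ΔDC, 5.28, 11.55 and 16.0 CPM in treated control, and 50.1, 44.9 and 47.8 CPM in treated FBXL5ΔDC livers. It rose 8.65-fold in FBXL5ΔDC livers (log2 3.11, SE 0.48, edgeR adjusted p = 9.52e-04) and at 6 h was 4.36-fold higher than in controls (log2 2.12, SE 0.46, edgeR adjusted p = 0.0253). The lowest treated FBXL5ΔDC library was well above the highest treated control. Ifit3b was at 0.862, 1.16 and 1.56 CPM in untreated control, 0.929, 1.60 and 1.27 CPM in untreated FBXL5ΔDC, 1.45, 2.73 and 4.97 CPM in treated control, and 19.8, 17.3 and 15.4 CPM in treated FBXL5ΔDC livers. It rose 13.8-fold in FBXL5ΔDC livers (log2 3.78, SE 0.42, edgeR adjusted p = 1.08e-04) and 2.55-fold in control livers (log2 1.35, SE 0.39, edgeR adjusted p = 0.0442), and at 6 h it was 5.73-fold higher in FBXL5ΔDC livers (log2 2.52, SE 0.39, edgeR adjusted p = 0.00606). Without treated control replicate 3 the change of Ifit3b in control livers was not called (log2 0.81, SE 0.32, edgeR adjusted p = 0.146). The promoters of both copies are among those printed above. Of the 50-base stretches of their annotated transcripts 51.2% in Ifit3 and 44.5% in Ifit3b occur in the other, so the split of counts between them is uncertain. Ifit1, which binds the cap of foreign RNA, had a mean of 5.11 ± 1.22 CPM in untreated and 14.5 ± 1.96 CPM in treated FBXL5ΔDC livers (2.83-fold, edgeR adjusted p = 0.0115).

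Rsad2 (chromosome 12, 26442746 to 26456452) encodes viperin, an enzyme that makes a chain-terminating nucleotide. It was at 4.15, 8.38 and 7.90 CPM in untreated control, 5.72, 10.4 and 8.33 CPM in untreated FBXL5ΔDC, 7.83, 21.2 and 24.7 CPM in treated control, and 66.5, 52.4 and 67.2 CPM in treated FBXL5ΔDC livers. The treated FBXL5ΔDC libraries lay above all others, and treated control replicate 1 lay within the untreated range. Rsad2 rose 7.62-fold in FBXL5ΔDC livers (log2 2.93, SE 0.41, edgeR adjusted p = 5.63e-04) and 2.63-fold in control livers (log2 1.39, SE 0.39, edgeR adjusted p = 0.045). Without treated control replicate 3 its change in control livers was not called (log2 1.09, SE 0.43, edgeR adjusted p = 0.174). The treated FBXL5ΔDC level was 3.47-fold that of treated controls (log2 1.79, SE 0.40, edgeR adjusted p = 0.0259), a call held in 8 of the 12 fits without 1 library. Its neighbour Cmpk2, which encodes a nucleotide kinase, had 5.88 ± 0.624 CPM in untreated and 11.72 ± 4.66 CPM in treated FBXL5ΔDC livers (log2 0.99, edgeR adjusted p = 0.0527).

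Oasl1, Mx2 and Isg15 rose in both genotypes, as Ifit3b and Rsad2 did. In control livers only the rise of Oasl1 was called in all 12 fits without 1 library. Oasl1, an OAS-like protein that inhibits the translation of Irf7, was at 4.70, 5.94 and 4.03 CPM in untreated control, 7.17, 6.32 and 4.34 CPM in untreated FBXL5ΔDC, 21.6, 15.5 and 12.9 CPM in treated control, and 15.3, 19.2 and 19.4 CPM in treated FBXL5ΔDC livers. All treated libraries lay above all untreated ones, and the treated genotypes overlapped. Oasl1 rose 3.41-fold in control livers (log2 1.77, SE 0.25, edgeR adjusted p = 0.00114) and 3.02-fold in FBXL5ΔDC livers (log2 1.60, SE 0.25, edgeR adjusted p = 6.35e-04), with a log2 genotype difference at 6 h of 0.11 (SE 0.24, edgeR adjusted p = 0.84). Mx2 belongs to a family of dynamin-like antiviral GTPases and is kept here among the effectors. The annotation types it as a polymorphic pseudogene, so its transcript level does not show that a working protein was made. It was at 2.19, 2.47 and 2.81 CPM in untreated control, 2.29, 4.06 and 3.10 CPM in untreated FBXL5ΔDC, 5.03, 5.70 and 6.08 CPM in treated control, and 7.92, 12.5 and 10.6 CPM in treated FBXL5ΔDC livers. The groups rank without overlap at 6 h. It rose 2.25-fold in control (edgeR adjusted p = 0.0124) and 3.29-fold in FBXL5ΔDC livers (edgeR adjusted p = 5.37e-04), and the difference at 6 h had an edgeR adjusted p of 0.0554 (log2 0.88, SE 0.25), and 0.0238 without treated control replicate 3. Isg15, the ubiquitin-like modifier, was at 1.72, 3.09 and 3.24 CPM in untreated control and 4.44, 8.15 and 4.08 CPM in treated control livers (2.07-fold, edgeR adjusted p = 0.0495). In FBXL5ΔDC livers it went from 2.72, 3.62 and 3.65 CPM to 8.37, 6.84 and 7.96 CPM (2.32-fold, edgeR adjusted p = 0.011).

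**Figure D4:**
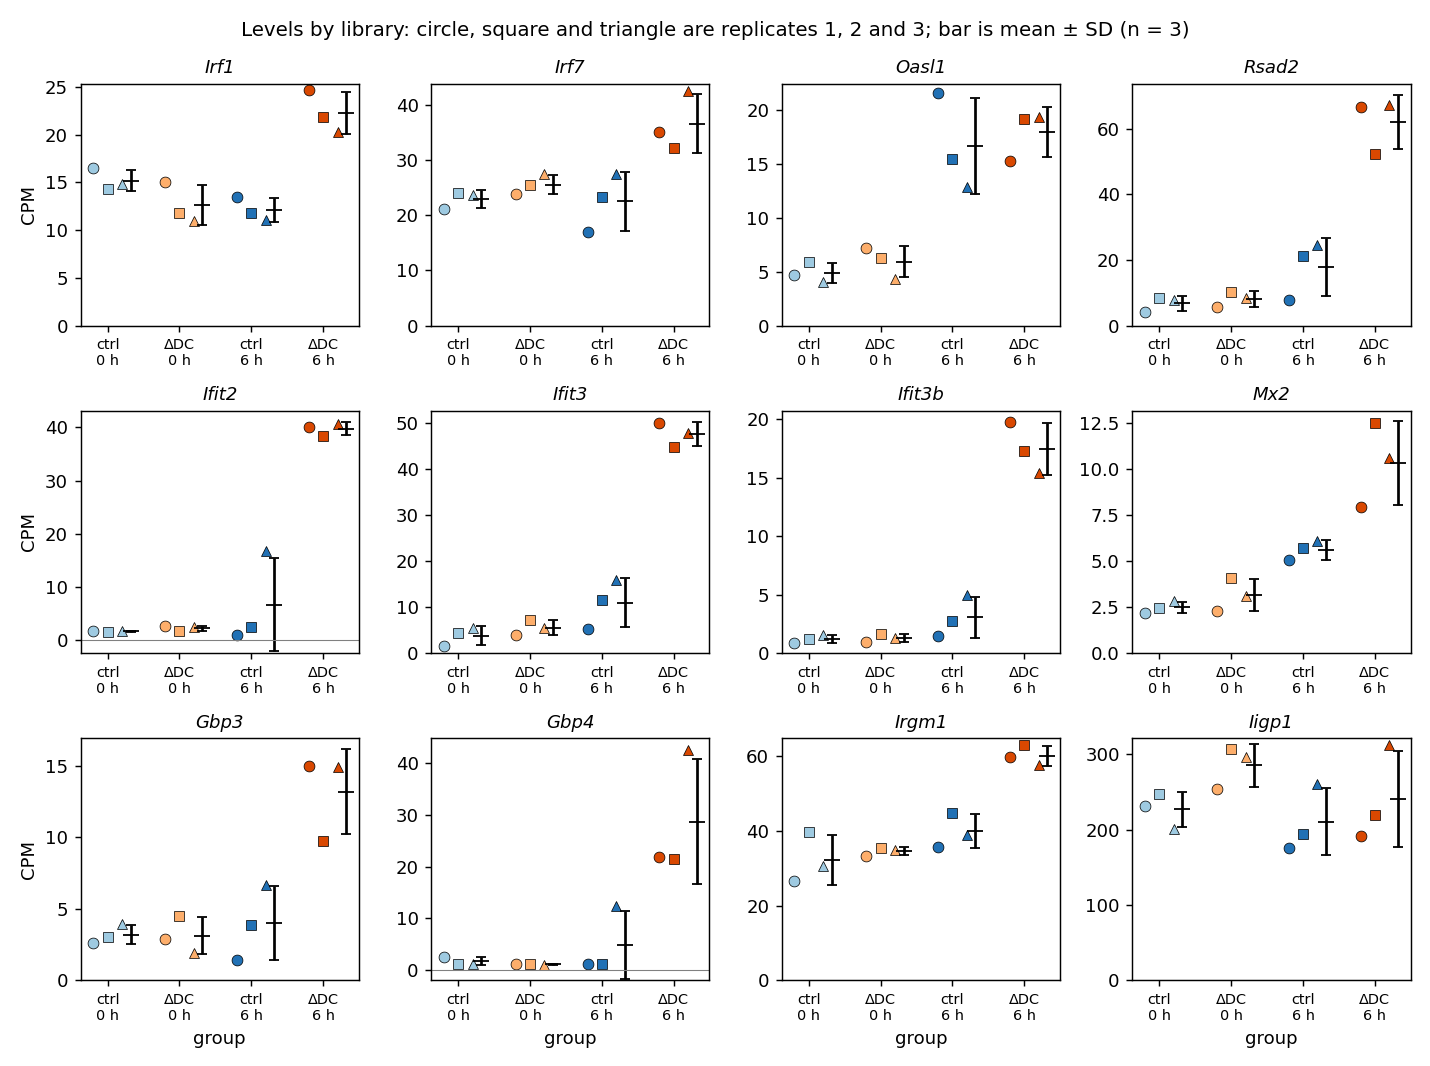
CPM of 12 members in each library (points), with the mean and SD (bars) of each of the 4 groups of 3. Each panel has its own linear axis, and for Ifit2 and Gbp4 the SD of treated control livers exceeds the mean, so the bar runs below 0. Ifit2 and Gbp4 in treated control livers are drawn out by replicate 3, at 16.8 and 12.4 CPM.

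A further group of effectors rose in FBXL5ΔDC livers and was not called in control livers by edgeR with all libraries. Trim30a, which restrains inflammatory signalling, rose 5.12-fold from 2.65 ± 0.625 to 13.5 ± 2.31 CPM (edgeR adjusted p = 0.00113), Xaf1, which promotes apoptosis, 4.89-fold from 1.41 ± 0.319 to 6.90 ± 3.37 CPM (edgeR adjusted p = 0.00196), and Oasl2 4.21-fold from 2.16 ± 0.162 to 9.09 ± 1.95 CPM (edgeR adjusted p = 0.00235). Control means in the same order went from 2.75 to 6.00, from 2.14 to 2.89 and from 1.61 to 3.90 CPM. Replicate 3 was the highest treated control for each, at 10.7, 4.21 and 6.65 CPM. DESeq2 called Trim30a and Oasl2 higher in control livers. Parp14, which attaches ADP-ribose, was at 18.2, 21.1 and 17.98 CPM in untreated control, 22.3, 23.0 and 20.8 CPM in untreated FBXL5ΔDC, 24.9, 30.3 and 21.6 CPM in treated control, and 36.0, 31.8 and 51.0 CPM in treated FBXL5ΔDC livers. The treated FBXL5ΔDC livers were highest, and Parp14 rose 1.80-fold there (log2 0.84, SE 0.18, edgeR adjusted p = 0.00402). Ifi44 and Oas1a rose as well, and each was called in 8 of the 12 fits without 1 library. Oas1a shares 57.6% of its 50-base stretches with Oas1g, so its count is uncertain. The effectors that edgeR with all libraries did not call in either response were Oas2, Oas3, Usp18, Mx1, Ifi35, Bst2, Rtp4 and Cmpk2. DESeq2 called Rtp4 and Cmpk2 higher in FBXL5ΔDC livers. Bst2, with the highest level per length of all members, was at 75.6, 76.1 and 86.7 CPM in untreated control, 80.0, 79.6 and 89.7 CPM in untreated FBXL5ΔDC, 65.9, 95.0 and 70.7 CPM in treated control, and 96.0, 79.9 and 84.2 CPM in treated FBXL5ΔDC livers. Its groups overlapped, with a log2 change of -0.04 (SE 0.14, edgeR adjusted p = 0.908) in control and 0.06 (SE 0.14, edgeR adjusted p = 0.794) in FBXL5ΔDC livers. Usp18, which removes ISG15 and blocks the type I receptor, had 7.66 ± 3.16, 7.35 ± 1.73, 7.79 ± 3.53 and 7.89 ± 2.501 CPM in untreated control, untreated FBXL5ΔDC, treated control and treated FBXL5ΔDC livers.

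Of the guanylate-binding proteins, which coat microbial vacuoles, all 6 on the list rose in FBXL5ΔDC livers and edgeR called 0 in control livers. Gbp2, Gbp3, Gbp5 and Gbp7 lie on chromosome 3 between 142493978 and 142638008, and Gbp4 and Gbp6 on chromosome 5 between 105115767 and 105293698. Gbp4 was at 2.60, 1.27 and 1.26 CPM in untreated control, 1.22, 1.15 and 1.09 CPM in untreated FBXL5ΔDC, 1.14, 1.11 and 12.4 CPM in treated control, and 21.9, 21.4 and 42.5 CPM in treated FBXL5ΔDC livers. As with Ifit2, replicate 3 was the only treated control above the untreated range. Gbp4 rose 24.9-fold in FBXL5ΔDC livers (log2 4.64, SE 0.93, edgeR adjusted p = 0.00428), and its exons overlap those of Gbp8 and Gbp9 on the same strand. At 6 h its log2 difference was 2.55 (SE 0.84, edgeR adjusted p = 0.103), and 4.67 (SE 0.42, edgeR adjusted p = 8e-06) without treated control replicate 3. Gbp5, which takes part in inflammasome activation, was at 0.690, 1.07 and 0.322 CPM in untreated control, 0.957, 0.676 and 0.283 CPM in untreated FBXL5ΔDC, 0.684, 0.766 and 4.45 CPM in treated control, and 7.16, 7.65 and 7.85 CPM in treated FBXL5ΔDC livers. In it too, replicate 3 was the only treated control above the untreated range. Gbp5 rose 11.8-fold in FBXL5ΔDC livers (log2 3.56, SE 0.74, edgeR adjusted p = 0.00391). At 6 h edgeR did not call it between genotypes with all libraries. Without treated control replicate 3 it was higher in FBXL5ΔDC livers (log2 3.38, SE 0.54, edgeR adjusted p = 5.25e-04).

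Gbp3 was at 2.63, 3.03 and 3.95 CPM in untreated control, 2.93, 4.53 and 1.94 CPM in untreated FBXL5ΔDC, 1.46, 3.91 and 6.67 CPM in treated control, and 15.0, 9.76 and 14.9 CPM in treated FBXL5ΔDC livers. It rose 4.22-fold in FBXL5ΔDC livers (log2 2.08, SE 0.47, edgeR adjusted p = 0.00542), and at 6 h was 3.30-fold higher than in controls (log2 1.72, SE 0.46, edgeR adjusted p = 0.0466). The treated FBXL5ΔDC group did not overlap any other, but the genotype call was held in 1 of the 12 fits without 1 library, the one without treated control replicate 3. Gbp2 rose 5.02-fold from 1.72 ± 0.279 to 8.66 ± 0.865 CPM in FBXL5ΔDC livers (edgeR adjusted p = 0.0021), and Gbp7 3.22-fold from 4.64 ± 1.81 to 14.9 ± 3.59 CPM (edgeR adjusted p = 0.00142). Gbp6 rose 3.28-fold (edgeR adjusted p = 0.0132), with 65% of its 50-base stretches shared with Gm43302. Control means went from 1.75 to 4.21 CPM for Gbp2 and from 5.18 to 9.11 CPM for Gbp7. EdgeR called neither change in control livers, and DESeq2 called that of Gbp2.

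The immunity-related GTPases varied among themselves. Irgm1 (chromosome 11, 48861968 to 48871683), which regulates the other members of its family and autophagy, was at 26.6, 39.6 and 30.7 CPM in untreated control, 33.4, 35.3 and 35.0 CPM in untreated FBXL5ΔDC, 35.8, 44.8 and 39.0 CPM in treated control, and 59.6, 62.9 and 57.7 CPM in treated FBXL5ΔDC livers. The treated FBXL5ΔDC libraries lay above all others. Irgm1 rose 1.74-fold there (log2 0.80, SE 0.15, edgeR adjusted p = 0.00167), and at 6 h it was 1.51-fold higher than in controls (log2 0.59, SE 0.14, edgeR adjusted p = 0.0338), which 4 of the 12 fits without 1 library called. Tgtp1 rose 3.57-fold from 2.81 ± 0.674 to 10.02 ± 1.97 CPM (edgeR adjusted p = 0.00272), but 79.4% of its 50-base stretches occur in Tgtp2. Ifi47 rose 1.72-fold from 9.06 ± 1.14 to 15.5 ± 1.42 CPM (edgeR adjusted p = 0.016). In control livers the mean of Tgtp1 went from 2.23 to 4.59 CPM, a change that DESeq2 called and edgeR did not.

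Igtp and Iigp1, the members of that family with the highest levels per length, were not called with all libraries. Igtp was at 23.5, 18.3 and 18.8 CPM in untreated control, 16.5, 26.2 and 21.0 CPM in untreated FBXL5ΔDC, 23.9, 37.3 and 12.97 CPM in treated control, and 18.6, 18.6 and 20.3 CPM in treated FBXL5ΔDC livers. The treated control livers held both the highest and the lowest of the 12. Without treated control replicate 3 Igtp was lower in FBXL5ΔDC than in control livers at 6 h (log2 -0.67, SE 0.21, edgeR adjusted p = 0.0309). Iigp1 was at 231, 247 and 201 CPM in untreated control, 253, 307 and 296 CPM in untreated FBXL5ΔDC, 176, 195 and 261 CPM in treated control, and 191, 219 and 312 CPM in treated FBXL5ΔDC livers. All groups overlapped except the untreated pair, in which FBXL5ΔDC was higher (log2 0.33, SE 0.19, edgeR adjusted p = 1). The summed level of the 11 GTPases, Iigp1 included, lay between 266 and 529 CPM per library. Exons of Igtp share 162 bases with Irgm2 on the same strand.

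The antigen-processing genes were not called with all libraries. Psmb8 and Psmb9 encode subunits of the immunoproteasome, which cuts proteins into peptides for MHC class I, and Tap1 a subunit of the transporter that brings them into the endoplasmic reticulum. Tap1 was at 10.2, 12.6 and 16.5 CPM in untreated control, 15.1, 17.6 and 14.5 CPM in untreated FBXL5ΔDC, 16.2, 19.7 and 13.9 CPM in treated control, and 20.9, 17.1 and 22.8 CPM in treated FBXL5ΔDC livers. Psmb8 was at 9.05, 11.67 and 16.6 CPM in untreated control, 11.3, 16.0 and 9.88 CPM in untreated FBXL5ΔDC, 9.02, 13.3 and 8.61 CPM in treated control, and 13.3, 16.7 and 12.04 CPM in treated FBXL5ΔDC livers. Both sets of groups overlapped. Psmb9 was at 3.93, 4.60 and 9.39 CPM in untreated control, 6.26, 4.12 and 3.46 CPM in untreated FBXL5ΔDC, 5.28, 9.36 and 3.34 CPM in treated control, and 3.33, 3.20 and 3.10 CPM in treated FBXL5ΔDC livers. Its treated FBXL5ΔDC libraries were the lowest of all 12, closely followed by treated control replicate 3. The log2 difference at 6 h was -0.90 (SE 0.40, edgeR adjusted p = 0.202), and -1.19 (SE 0.37, edgeR adjusted p = 0.0322) without that replicate. Exons of Psmb9 and Tap1 share 212 bases on opposite strands, and exons of Psmb8 share 498 bases with the antisense Gm20496.

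Upstream of these genes, interferon transcripts themselves were at or near the limit of detection. Of 14 interferon genes 0 passed the filter. Ifnb1, Ifng and 9 others had 0 counts in all 12 libraries, which allows up to 3 counts per library, or 0.0371 to 0.0492 CPM. Ifnk reached 14 counts, Ifnab 3 and Ifnz 1. These limits cover counting error only.

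Receptors and signalling genes moved in both directions in FBXL5ΔDC livers. For the counts of these lists, 15.0% of all genes rose and 15.1% fell in FBXL5ΔDC livers, 6.36% rose and 4.20% fell in control livers, and at 6 h 1.35% were higher and 4.51% lower in FBXL5ΔDC livers, or 10.1% and 12.9% without treated control replicate 3. Of 6 receptor genes 2 rose and 1 fell in FBXL5ΔDC livers, and 0 were called in control livers or between genotypes. Without treated control replicate 3 the genotype comparison at 6 h called 2 of them higher and 1 lower, and 1 fell in control livers. Ifnar1 was at 31.8, 38.4 and 34.1 CPM in untreated and 21.0, 12.7 and 20.2 CPM in treated FBXL5ΔDC livers, with no overlap (log2 -0.95, SE 0.19, edgeR adjusted p = 0.00282). Ifngr1 went the other way, from 12.8, 10.98 and 10.4 CPM to 30.3, 20.8 and 30.4 CPM (2.38-fold, edgeR adjusted p = 0.00992). Treated control livers had 24.3, 30.9 and 21.5 CPM of Ifnar1 and 11.1, 19.0 and 34.0 CPM of Ifngr1, and neither gene was called in control livers. Without replicate 3 Ifnar1 was lower (log2 -0.62, edgeR adjusted p = 0.0289) and Ifngr1 higher (log2 0.85, edgeR adjusted p = 0.0149) in treated FBXL5ΔDC than in treated control livers. The receptor gene that also rose was Ifnlr1, of the lambda interferon receptor, from 0, 0.0588 and 0 CPM to 0.568, 0.541 and 0.909 CPM in FBXL5ΔDC livers (edgeR adjusted p = 0.0471).

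Of 9 JAK-STAT genes and their brakes 5 rose and 3 fell in FBXL5ΔDC livers, 4 rose in control livers, and 2 were higher in FBXL5ΔDC livers at 6 h. With treated control replicate 3 left out, 3 rose in control livers, and at 6 h 4 were higher and 3 lower. The feedback inhibitor Socs3 was at 5.53, 5.90 and 6.86 CPM in untreated and 10.57, 10.09 and 33.6 CPM in treated livers of control mice, and at 4.21, 5.22 and 6.75 CPM in untreated and 65.9, 96.0 and 79.5 CPM in treated FBXL5ΔDC livers. Treated control replicate 3 lay between the other treated controls and the treated FBXL5ΔDC livers. Socs3 rose in control (log2 1.57, edgeR adjusted p = 0.0337) and in FBXL5ΔDC livers (log2 3.90, edgeR adjusted p = 1.95e-04), and at 6 h it was 4.45-fold higher in FBXL5ΔDC livers (edgeR adjusted p = 0.016). Without that replicate the rise in control livers had a log2 of 0.76 (edgeR adjusted p = 0.0237) and the difference at 6 h was 7.78-fold (edgeR adjusted p = 1.11e-06). Its relative Socs1 rose from a mean of 0.412 to 1.43 CPM in control (edgeR adjusted p = 0.0417, and 0.068 without replicate 3) and from 0.232 to 3.36 CPM in FBXL5ΔDC livers (edgeR adjusted p = 4.51e-04). The phosphatase gene Ptpn2 was 2.83-fold higher in FBXL5ΔDC livers at 6 h (edgeR adjusted p = 0.00915), and 3.83-fold without replicate 3 (edgeR adjusted p = 5.94e-06).

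Of 16 genes that lead to interferon production 4 rose in control livers, 6 rose and 2 fell in FBXL5ΔDC livers, and 1 was higher and 2 were lower in FBXL5ΔDC livers at 6 h. At 6 h 5 were higher and 2 lower without treated control replicate 3. The adaptor of the RNA sensors, Mavs, fell from 71.2 to 21.8 CPM in FBXL5ΔDC livers (log2 -1.71, edgeR adjusted p = 3.75e-04) and was lower than in control livers at 6 h, where it was at 64.6 CPM (log2 -1.57, edgeR adjusted p = 0.00508). Irf3, the factor it activates, was lower as well (log2 -0.85, edgeR adjusted p = 0.0241). Irf8, a factor of myeloid cells, was the 1 that was higher at 6 h, with 19.9 against 6.22 CPM (edgeR adjusted p = 0.00553). Sting1, the adaptor of DNA sensing, rose from 0.483 to 2.39 CPM in control (edgeR adjusted p = 0.00801) and from 0.903 to 6.72 CPM in FBXL5ΔDC livers (edgeR adjusted p = 7.35e-04). Its treated control mean was 1.49 CPM without replicate 3 (edgeR adjusted p = 0.0126).

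Interferon-stimulated genes outside the 44 were counted from a second list of 60. In control livers 3 rose and 1 fell, where 6.36% of all genes rose and 4.20% fell. In FBXL5ΔDC livers 24 rose and 3 fell (median log2 0.39), where 15.0% of all genes rose and 15.1% fell. At 6 h 12 were higher and 0 lower in FBXL5ΔDC livers (median log2 0.35), where 1.35% of all genes were higher and 4.51% lower. Leaving out treated control replicate 3, the counts were 2 higher and 1 lower in control livers (5.23% and 3.86% of all genes). At 6 h they were then 22 higher and 5 lower (10.1% and 12.9% of all genes). The chemokine gene Cxcl10, which attracts T cells, was at 2.04, 2.36 and 1.68 CPM in untreated control, 2.54, 1.84 and 2.01 CPM in untreated FBXL5ΔDC, 2.77, 5.23 and 21.1 CPM in treated control, and 75.6, 73.3 and 55.8 CPM in treated FBXL5ΔDC livers. It rose in both genotypes (edgeR adjusted p = 0.0391 in control and 5.58e-04 in FBXL5ΔDC livers). Without replicate 3 its treated control mean was 4.001 in place of 9.70 CPM (edgeR adjusted p = 0.0244 for the rise). Cxcl11, Slfn5, Ifi203 and Tgtp2 had the lowest adjusted p-values at 6 h. Cxcl11 had a mean of 0.377 CPM in treated control and 2.83 CPM in treated FBXL5ΔDC livers. Slfn5 was at 6.44, 6.60 and 19.6 CPM in treated control and 45.4, 44.6 and 51.6 CPM in treated FBXL5ΔDC livers, and Ifi203 at 3.72, 5.74 and 14.6 CPM and at 28.2, 25.6 and 35.9 CPM. For Tgtp2 the values were 1.56, 4.38 and 8.05 CPM and 21.2, 15.95 and 18.3 CPM. In these last 3 replicate 3 was the highest treated control, and without it the differences were 7.23-fold for Slfn5, 6.32-fold for Ifi203 and 6.21-fold for Tgtp2, in place of 4.34-fold, 3.74-fold and 3.97-fold.

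Markers of cells that could carry these transcripts were counted in the same way, and the shares of all genes given for the pathway lists apply. In FBXL5ΔDC livers 5 of 12 Kupffer cell markers rose and 0 fell, with summed levels of 199 to 258 CPM in untreated and 262 to 440 CPM in treated livers, beside 221 to 272 CPM in treated control livers. Of 7 neutrophil markers tested 4 rose (sum 1.36 to 2.33 CPM untreated and 4.14 to 11.1 CPM treated, with Ngp and Camp at 0 in the treated libraries, beside 3.55 to 4.17 CPM in treated control livers). Among sinusoidal endothelial markers 7 of 10 rose (253 to 293 and 408 to 484 CPM, beside 256 to 349 CPM in treated control livers). Of stellate cell markers 5 of 9 rose (101 to 171 and 317 to 382 CPM, beside 170 to 301 CPM in treated control livers). Monocyte markers and hepatocyte markers each had 2 of 10 higher, near the share of all genes. Of 12 dendritic cell, 5 plasmacytoid dendritic cell (Bst2 among them), 11 T and NK cell and 6 B cell markers tested 0 rose or fell. The summed dendritic cell markers lay at 34.2 to 60.9 CPM in untreated and 69.4 to 88.2 CPM in treated FBXL5ΔDC livers, with Xcr1 at 0 in the treated ones, and at 27.8 to 77.1 CPM in treated control livers, which overlapped both. At 6 h 2 of 12 Kupffer cell and 2 of 10 endothelial markers were higher in FBXL5ΔDC than in control livers, and 0 of the other lists were called. Without treated control replicate 3 the numbers higher at 6 h were 4 of 12 Kupffer cell, 7 of 10 endothelial, 4 of 9 stellate cell, 5 of 10 hepatocyte and 2 of 10 monocyte markers, and 1 stellate cell and 1 dendritic cell marker were lower. The part of these cells in the changes of the interferon-stimulated genes was not tested.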

How the data were processed

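Whole-liver RNA extracted with ISOGEN was sequenced in 12 libraries, per the labels' protocols. The submitters' processing notes name Trim Galore 0.6.6, HISAT2 2.2.1 and the build mm10. The authors deposited 1 table of estimated counts per gene without normalisation. The counting program and its strand setting are not given in the sources used here. Every value was a whole number, so rounding changed none, but among values of 1 to 40 the multiples of 4 made up 26.5% to 28.5%, so the number of fragments behind a low count is unknown. The design had named them counts, and its test was kept.

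Genes were filtered with filterByExpr by group, scaled by TMM and fitted in edgeR 4.0.16 (R 4.3.3) with a robust quasi-likelihood model of 4 group means on 8 residual degrees of freedom. Contrasts were 6 h minus 0 h in each genotype, FBXL5ΔDC minus control at each time, and the interaction. The threshold was an adjusted p of 0.05 (Benjamini-Hochberg, 17585 genes). Libraries totalled 67173096 to 72512319 counts, and floors of 3 counts cover counting error only. The standard error (SE) is the log2 change divided by the root of the F statistic. Log2 CPM used a prior count of 2. The model was also run on simulated counts with known changes in the treated control group. No simulated library was made to stand apart as replicate 3 did, so that case was not tested.

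Members and gene lists were chosen with earlier results of these data known. Named with values are the members called in a contrast (at most the 12 largest changes each way), the 3 with the highest CPM in each role, and Ifnb1, Ifng, Ifnar1, Ifngr1, Fbxl5 and Itgax. Called members of the other lists could be named (at most 4 a list and comparison, by adjusted p). A gene that the rule names in any case is not reported here. Other members were named beside counts after their values were seen. Coordinates are those of GENCODE vM21 on GRCm38, which matched 98.1% of identifiers with their version and 99.5% without it. Shared 50-base stretches were counted on its transcripts, and were at most 12.7% for members not named as uncertain. No 2 libraries of a group were copies (chi-square per gene at least 26.05, with counts divided by 4). Alternatives were RLE and upper quartile scaling, DESeq2 1.42.0, no filter, counts divided by 4, a replicate block, fits to the groups of a contrast, and each library left out.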

Additional observations from a re-analysis of the deposited data

How the results depend on the processing

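Directions of called members held under every alternative run. The number of members that rose in control livers, 5 in the fit reported, was 2 with upper quartile scaling, 10 with DESeq2, 3 without the filter, 1 in a fit to the groups of the contrast, and 1 to 11 with 1 library left out. In FBXL5ΔDC livers 21 to 27 rose and 0 to 1 fell with 1 library left out. The number higher in FBXL5ΔDC livers at 6 h, 7 as reported, was 14 with DESeq2, 0 in a fit to the groups of the contrast, and 2 to 15 with 1 library left out, with 0 to 5 lower. For the interaction, 0 as reported, it was 2 with DESeq2 and 0 to 11 with 1 library left out. Fitting the replicate number as a block gave 1 member (Irf1) for the interaction, 8 at 6 h, 6 in control and 25 in FBXL5ΔDC livers. Shares of all genes are not given here for the block, for upper quartile scaling or for the fit without the filter. Under these settings a change in the count of members cannot be told from a change in the number of all genes called. Deviations of samples with the same number correlated at -0.0614 to 0.0441 over all genes tested. Samples with different numbers were not compared, so these values cannot decide whether the numbers pair samples of a litter or cage. At 0 h 0 members were called under each alternative. A fit to 2 groups has fewer samples, but the causes of these shifts in count were not tested. Interferon genes were at the limit of this depth.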
